A study of Mus musculus with 70 samples.

Results

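The TNF receptor superfamily is a group of surface receptors, and 10 of its genes were described here in regulatory T cells (Tregs) of 6 mouse tissues. The 10 were taken by name (Tnfrsf1a, Tnfrsf1b, Tnfrsf4, Tnfrsf8, Tnfrsf9, Tnfrsf18, Tnfrsf25, Tnfrsf10b, Cd27 and Fas) and matched to their gene IDs among the 53465 IDs of the count table. All 10 passed the filter on low counts, which 13173 protein-coding genes passed. The data are RNAseq libraries of cells sorted from back skin, colon, lungs, spleen, blood and the visceral fat of the abdomen (VAT). In each tissue, Tregs with and without ST2 (the IL-33 receptor, encoded by Il1rl1) were sorted from CD44hi cells, and in spleen and lungs ST2- CD44lo CD62L+ Tregs were sorted too, which makes 14 groups. Every group was sorted from the same 5 mice. Of the 70 libraries, the 67 with more than 1000000 counts were used. Each group has 5 libraries except blood ST2+ (4) and colon ST2+ (3), because blood ST2+ of mouse 1 and colon ST2+ of mice 2 and 5 fell under that limit.

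Receptors of this family bind ligands that assemble as trimers, and signal through TRAF adaptors toward NF-kB or, where the receptor has a death domain, also toward cell death. OX40 (Tnfrsf4), GITR (Tnfrsf18), 4-1BB (Tnfrsf9), TNFR2 (Tnfrsf1b), CD27, CD30 (Tnfrsf8) and DR3 (Tnfrsf25) are known as co-stimulatory receptors of T cells, several of them as receptors that Tregs carry at a high level. TNFR1 (Tnfrsf1a), Fas, the TRAIL receptor DR5 (Tnfrsf10b) and DR3 have death domains.

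The mice were males with the Foxp3tm4(YFP/icre)Ayr allele on a B6.129(Cg) background, aged 16.6 to 18.6 weeks and untreated as far as the labels say. They express YFP fused to Cre recombinase from the Foxp3 locus, so every sorted group carried this allele, and the gate of the sort included CD45.2+ CD8- CD11b- CD4+ YFP+. Usually 220 cells went into a library, and 7 of the 67 libraries had fewer, the lowest with 55. Blood and spleen cells were released without enzyme and the other tissues were digested with collagenase, skin longest and colon after EDTA steps. Lungs and VAT shared a digestion, but CD4 T cells were enriched with magnetic beads from spleen and lungs only, so that tissue and preparation cannot be told apart in any comparison of tissues. Foxp3 was found in all 67 libraries, at 105 to 414 CPM (counts scaled to a library size of 1000000). Il1rl1 was at 230 CPM or more in every ST2+ library and at 195 CPM or less in every ST2- library, the highest of these from skin. Macrophage markers (8 genes, all with counts) summed to 1270 to 1460 CPM in the 3 colon ST2+ libraries, with Lyz2 the most abundant at a mean of 522 CPM, against 22.7 to 250 CPM in colon ST2- libraries. Fibroblast markers (5 of 5 genes with counts) summed to 342 to 1090 CPM and epithelial markers (4 of 7 genes) to 199 to 1010 CPM in the same 3 libraries. The part of these markers in the receptor levels was not tested, but the ST2 comparisons in the other 5 tissues, the comparisons with CD44lo CD62L+ Tregs and the pairs of those tissues were fitted again without the colon libraries.

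In the GRCm38 genome 6 of the 10 genes lie on chromosome 4. Tnfrsf4 (chr4:156013843-156016612, plus strand) and Tnfrsf18 (chr4:156026164-156028895, plus strand) are neighbours 9.551 kb apart, and Tnfrsf1b (chr4:145213463-145246870, minus strand) and Tnfrsf8 (chr4:145267137-145315164, minus strand) are 20.27 kb apart. Tnfrsf9 (chr4:150914562-150946102) and Tnfrsf25 (chr4:152115934-152120119) lie between these pairs, on the plus strand. Tnfrsf1a (chr6:125349362-125362484) and Cd27 (chr6:125232622-125237010) are on chromosome 6, Tnfrsf10b (chr14:69767472-69784411) on chromosome 14 and Fas (chr19:34290666-34327772) on chromosome 19.

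Since these receptors signal toward NF-kB, the RefSeq promoter windows (250 bases before to 50 after a gene start, GRCm38.p6) of the members were searched on both strands for an NF-kB-like motif (GGG, then 2 bases of any kind, then TTTCC) and an AP-1-like motif, TGANTCA. There were 11 windows for 9 members. The first motif was found in a window of Tnfrsf9 and a window of Tnfrsf25, and in 1.63% of all 32851 windows of this length. The other window of each gene held neither motif (chr4:150919905-150920204 for Tnfrsf9 and chr4:152116093-152116392 for Tnfrsf25). Both windows of Tnfrsf9 lie inside the gene span given above. The second was found in windows of Tnfrsf8, Tnfrsf9 and Fas, and in 7.81% of all windows. The windows with the first motif are shown because these genes carry the widest tissue range among the abundant members (Tnfrsf9) and the clearest ST2 difference (Tnfrsf25). Capitals mark the matches. In the Tnfrsf9 window (chr4:150927749-150928048, plus strand) they start 43 bases (GGGGATTTCC) and 15 bases (TGAGTCA) before the annotated start, and in the Tnfrsf25 window (chr4:152115684-152115983, plus strand) 218 bases before it, as GGAAAAGCCC, which is the motif on the other strand. A match describes the sequence and is not evidence that a factor binds there.
Tnfrsf9: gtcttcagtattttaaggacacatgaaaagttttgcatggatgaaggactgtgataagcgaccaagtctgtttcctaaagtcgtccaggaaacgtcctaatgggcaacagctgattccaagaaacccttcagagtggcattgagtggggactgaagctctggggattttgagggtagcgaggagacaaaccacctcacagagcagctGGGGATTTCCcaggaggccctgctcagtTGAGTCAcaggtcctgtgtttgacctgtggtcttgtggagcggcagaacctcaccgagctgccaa
Tnfrsf25: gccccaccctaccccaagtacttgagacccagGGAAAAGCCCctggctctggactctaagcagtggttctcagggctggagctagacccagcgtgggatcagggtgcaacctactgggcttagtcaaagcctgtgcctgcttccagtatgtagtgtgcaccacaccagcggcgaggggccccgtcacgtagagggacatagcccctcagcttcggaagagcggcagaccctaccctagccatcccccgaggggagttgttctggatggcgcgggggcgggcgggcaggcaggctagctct

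Per kb of exon, Tnfrsf4 was the most abundant of the 10 transcripts and Tnfrsf8 the least. The median over the 67 libraries was 467 CPM per kb for Tnfrsf4, 243 for Tnfrsf18, 208 for Cd27, 134 for Tnfrsf1b and 125 for Tnfrsf9. It was 71.9 CPM per kb for Tnfrsf25, 55.8 for Fas, 18.5 for Tnfrsf1a, 3.25 for Tnfrsf10b and 1.59 for Tnfrsf8. The first 5 stood above at least 98.12% of the tested genes on this scale, while Tnfrsf10b stood above 37.65% and Tnfrsf8 above 30.13%. Tnfrsf8 had no count in 19 libraries, Tnfrsf1a in 2 and Tnfrsf10b in 1, and the other 7 receptors had counts in all 67. Per kb of the longest transcript, Tnfrsf9 (161) and Tnfrsf1b (134) changed places.

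**Figure D1:**
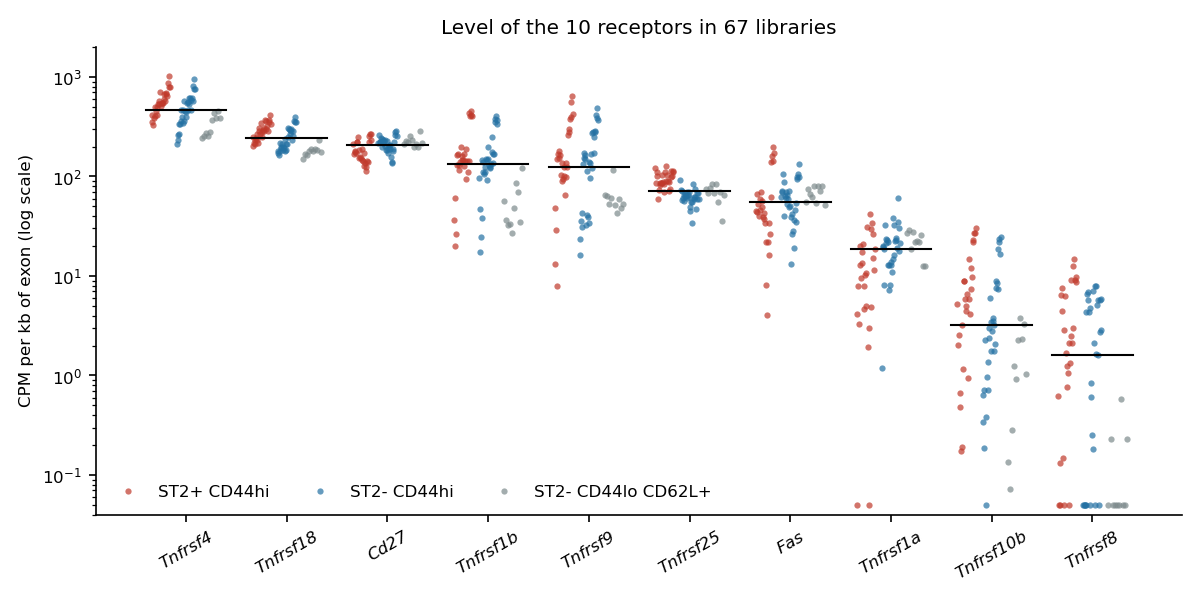
CPM per kb of exon (log axis) of the 10 receptors in the 67 libraries, coloured by population, with libraries at 0 drawn at the bottom and a line at the median of all libraries. Tnfrsf4 has the highest median, 467 CPM per kb, and its libraries spread less than those of Tnfrsf9, Tnfrsf1b or Fas.

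The counts of abundant short transcripts have a ceiling in these libraries. Among 44634 genes with more than 300 exonic bases, none exceeded 2 counts per exonic base in any library, and the highest value was 1.964. Tnfrsf4 reached 2082 counts over 1365 exonic bases, which is 1.525 counts per base and the 24th highest value of these genes, and it exceeded 1 count per base in 32 of 67 libraries. Tnfrsf1b exceeded 1 count per base in 1 library and no other member did. When counts were corrected as if each exonic base could give at most 2 counts, the ratio of the highest to the lowest group mean of Tnfrsf4 went from 3.15 to 4.54, or to 5.93 with the length of the longest transcript. The same ratio went from 19.5 to 24.3 for Tnfrsf9 and from 11.8 to 14.4 for Tnfrsf1b. If this assumed correction holds, the uncorrected folds of Tnfrsf4 below understate its range more than those of the other members. How reads with the same start were handled is not given in the sources used here, and the cause of the ceiling was not tested.

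**Figure D2:**
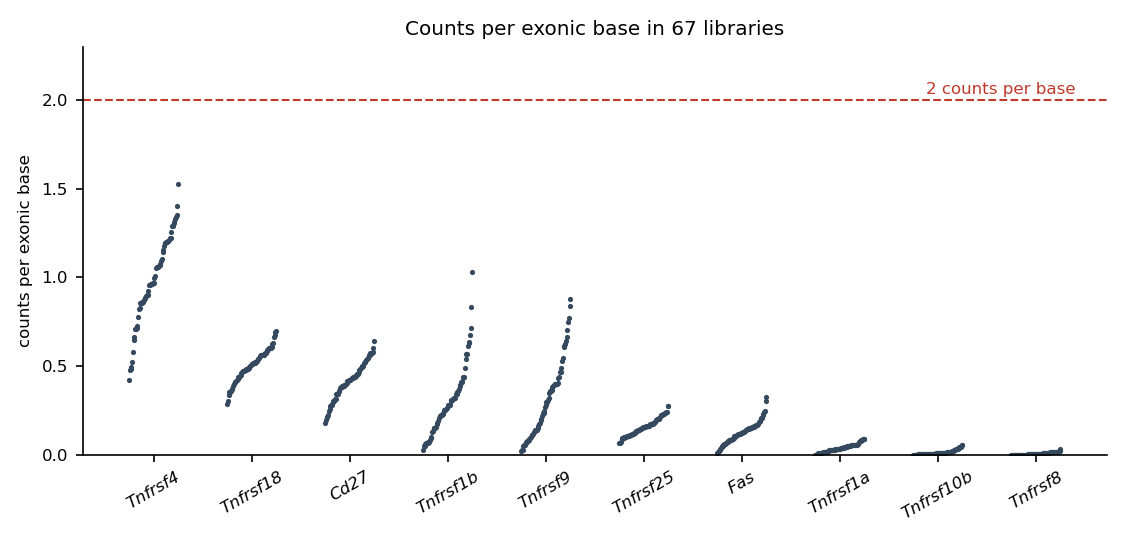
Counts per exonic base of the 10 receptors in 67 libraries, each library a point, ordered by value within a gene, with a dashed line at 2 counts per base. Tnfrsf4 comes nearest to the line, with a maximum of 1.525, and Tnfrsf1b reaches 1.029.

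Skin Tregs had the highest level of most receptors, and blood Tregs the lowest of several. The highest group mean was in skin ST2+ for 8 of 10 members, and in skin ST2- for Cd27 and Tnfrsf1a. In all tested genes it was in skin ST2+ for 13.2% and in skin ST2- for 9.62%. With the ceiling corrected by transcript length, Tnfrsf25 had its highest mean in blood ST2+ instead (249 CPM). Levels differed among the 6 tissues for 10 of 10 members in ST2+ and for 9 of 10 in ST2- Tregs (all but Tnfrsf1a), by F tests of edgeR's quasi-likelihood fit with adjusted p of at most 0.05. In all tested genes the same test was passed by 47.6% in ST2+ and 43.5% in ST2- Tregs. In ST2+ Tregs, Tnfrsf1a missed the threshold without mouse 1 (edgeR adjusted p = 0.0863), mouse 3 (0.135) or mouse 5 (0.0711). Tnfrsf8 missed it there without mouse 3 (edgeR adjusted p = 0.13), mouse 4 (0.0665) or mouse 5 (0.0532). Tnfrsf25 is given below, and the other members passed in both populations without any single mouse. Over the 15 tissue pairs, a call (fold change of at least 1.5 and adjusted p of at most 0.05) was made in 50 of 150 pairs of a member and 2 tissues in ST2+, and in 57 of 150 in ST2- Tregs, against 12.1% and 11.8% of all such pairs of the tested genes. Skin took part in 27 and 28 of these calls and blood in 22 and 25, while in all tested genes skin took part in 62.7% and 65% of the calls and blood in 31.5% and 34.9%. Without the colon libraries, 36 of the 38 calls among the other 5 tissues were made in ST2+ and 40 of the 42 in ST2- Tregs. In sorted bulk samples, fewer cells that express a gene and less RNA of it per cell cannot be told apart.

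Tnfrsf1b, the receptor that binds membrane-bound TNF best, formed 3 levels, with blood lowest, skin highest and the other tissues between. In ST2+ Tregs it was at 139, 76.4, 229 and 102 CPM in blood and at 1674, 1547, 1598, 1727 and 1535 CPM in skin, with no overlap. In ST2- Tregs it was at 366, 66.9, 181, 94.3 and 147 CPM in blood and at 1360, 1459, 1535, 1299 and 1421 CPM in skin. All 9 pairs with blood or skin were called in each population, and none among spleen, lungs, VAT and colon. From lungs, the next tissue in order, to skin, the log2 difference was 1.42 ± 0.26 (SE) in ST2+ (edgeR adjusted p = 3.33e-05), and from colon to skin it was 1.04 ± 0.26 in ST2- Tregs (edgeR adjusted p = 0.00229).

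Tnfrsf9, an activation-induced receptor, had the widest range of the abundant members, from a mean of 66.9 ± 48.9 CPM (SD, n = 4) in blood ST2+ to 1301 ± 314 CPM (SD, n = 5) in skin ST2+. Blood ST2+ libraries were at 36.2, 130, 79.3 and 21.7 CPM, colon ST2+ at 710, 763 and 823 CPM, and skin ST2+ at 1021, 1508, 1076, 1749 and 1154 CPM. The 3 tissues did not overlap, although skin over colon missed the threshold in ST2+ (log2 difference 0.77 ± 0.31, edgeR adjusted p = 0.0758) and in ST2- Tregs (0.63 ± 0.26, edgeR adjusted p = 0.0899). Skin exceeded blood, spleen, lungs and VAT, and colon exceeded blood, lungs and VAT, in both populations. ST2- Tregs of lungs held less Tnfrsf9 than those of spleen (88.6, 308, 112, 106 and 92.0 against 364, 418, 473, 448 and 412 CPM, no overlap, log2 difference -1.59 ± 0.27, edgeR adjusted p = 2.86e-05).

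Tnfrsf4 and its neighbour Tnfrsf18, 2 receptors that Tregs carry constitutively, varied less in the uncorrected counts and in much the same order. Mean Tnfrsf4 in ST2- Tregs was 358 CPM in blood, 517 CPM in spleen, 616 CPM in lungs, 694 CPM in VAT, 789 CPM in colon and 1048 CPM in skin, and no step between neighbours in this order reached 1.5-fold. The steps from blood to spleen (1.44-fold, edgeR adjusted p = 0.00291) and from colon to skin (1.33-fold, edgeR adjusted p = 0.00951) passed the p threshold, and both were called with the ceiling corrected by exonic length (1.70-fold, adjusted p = 5.35e-06, and 1.52-fold, adjusted p = 8.36e-05). Skin over blood was 2.93-fold in ST2- (290 to 462 against 776 to 1288 CPM, edgeR adjusted p = 2.85e-16) and 2.24-fold in ST2+ Tregs (444 to 564 against 888 to 1394 CPM, edgeR adjusted p = 8.23e-11). Tnfrsf18 ran from 277 ± 29.9 CPM in blood to 525 ± 82.0 CPM in skin (SD, n = 5 each) in ST2- Tregs, 1.89-fold (edgeR adjusted p = 4.5e-10). Over the 14 group means the log2 levels of Tnfrsf4 and Tnfrsf18 had a Pearson r of 0.946, which is a description of groups that share mice.

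Among the death domain receptors, Fas had its highest group mean in skin ST2+ and its lowest in VAT ST2+. Fas in ST2- Tregs of VAT (27.4 to 86.2 CPM) overlapped that of colon (39.2 to 112 CPM). In ST2+ Tregs it was at 45.4, 16.6, 8.27, 45.0 and 33.9 CPM in VAT, at 102, 80.4, 77.5, 88.9 and 70.9 CPM in lungs and at 288, 332, 296, 410 and 355 CPM in skin. These 3 tissues did not overlap, and the step from VAT to lungs (log2 difference 1.48 ± 0.27, edgeR adjusted p = 0.000138) and that from spleen to skin (1.59 ± 0.26, edgeR adjusted p = 1.21e-06) were both called. Tnfrsf10b, the only TRAIL death receptor of mice, had a ratio of highest to lowest group mean of 48.9, the largest of the 9 members with counts in every group, from 2.89 ± 2.83 CPM in spleen CD44lo CD62L+ to 141 ± 19.3 CPM in skin ST2+ (SD, n = 5 each). It was at 125, 119, 147, 148 and 167 CPM in skin ST2+, at 66.2, 40.5 and 52.7 CPM in colon ST2+ and at 2.65, 0.939, 17.6, 1.03 and 6.35 CPM in spleen ST2+. Skin was above every library of the other tissues for this gene, and skin over spleen was called in ST2+ (edgeR adjusted p = 8.83e-08) and ST2- Tregs (edgeR adjusted p = 2.68e-08), while skin over colon was called in ST2- Tregs (edgeR adjusted p = 0.0399) and had an adjusted p of 0.144 in ST2+. Tnfrsf1a, the receptor for soluble TNF, was low and uneven among mice, with 2 called pairs in ST2+ (skin and colon over blood) and 1 in ST2- Tregs (skin over lungs). In colon ST2+ it was at 108, 77.4 and 12.6 CPM, in the libraries with macrophage, fibroblast and epithelial transcripts. The part of those transcripts in this call was not tested.

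Tnfrsf25, the receptor for TL1A, was called in no tissue pair in either population. Its F tests passed in the main fit (edgeR adjusted p = 0.00912 in ST2+ and 0.0146 in ST2-). The ST2+ result was lost without mouse 2 (edgeR adjusted p = 0.0703). The ST2- result was lost without mouse 1 (edgeR adjusted p = 0.0733), mouse 2 (0.0724) or mouse 4 (0.063). It was also lost with all 70 libraries (0.0524) and with the covariate for sorted cells (0.0802). Cd27, the receptor for CD70, had the smallest ratio of highest to lowest group mean of the 10 members, 1.92, between its highest group, skin ST2- (605 ± 54.3 CPM, SD, n = 5), and its lowest, colon ST2+ (316 ± 24.1 CPM, SD, n = 3). Its F tests passed (edgeR adjusted p = 5.07e-10 in ST2+ and 3.51e-06 in ST2-). Its 4 calls in ST2+ Tregs were skin over lungs, VAT and colon, and spleen over colon. Its 1 call in ST2- Tregs was skin over colon. Its lowest mean and its ST2+ calls with colon rest on the 3 libraries with macrophage, fibroblast and epithelial transcripts, whose part was not tested. Tnfrsf8 was at 43.9, 51.0, 31.6, 30.04 and 33.9 CPM in skin ST2+, and 1 library of another group, VAT ST2+ of mouse 5 at 31.3 CPM, reached that range. In blood ST2- Tregs it had 0 counts in 5 libraries, and 3 counts over that group would be 0.313 CPM. Against that floor spleen ST2-, with 240 counts over the group (19.0 CPM), was at least 60.85-fold higher. This bound covers counting error only, not the spread between mice.

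**Figure D3:**
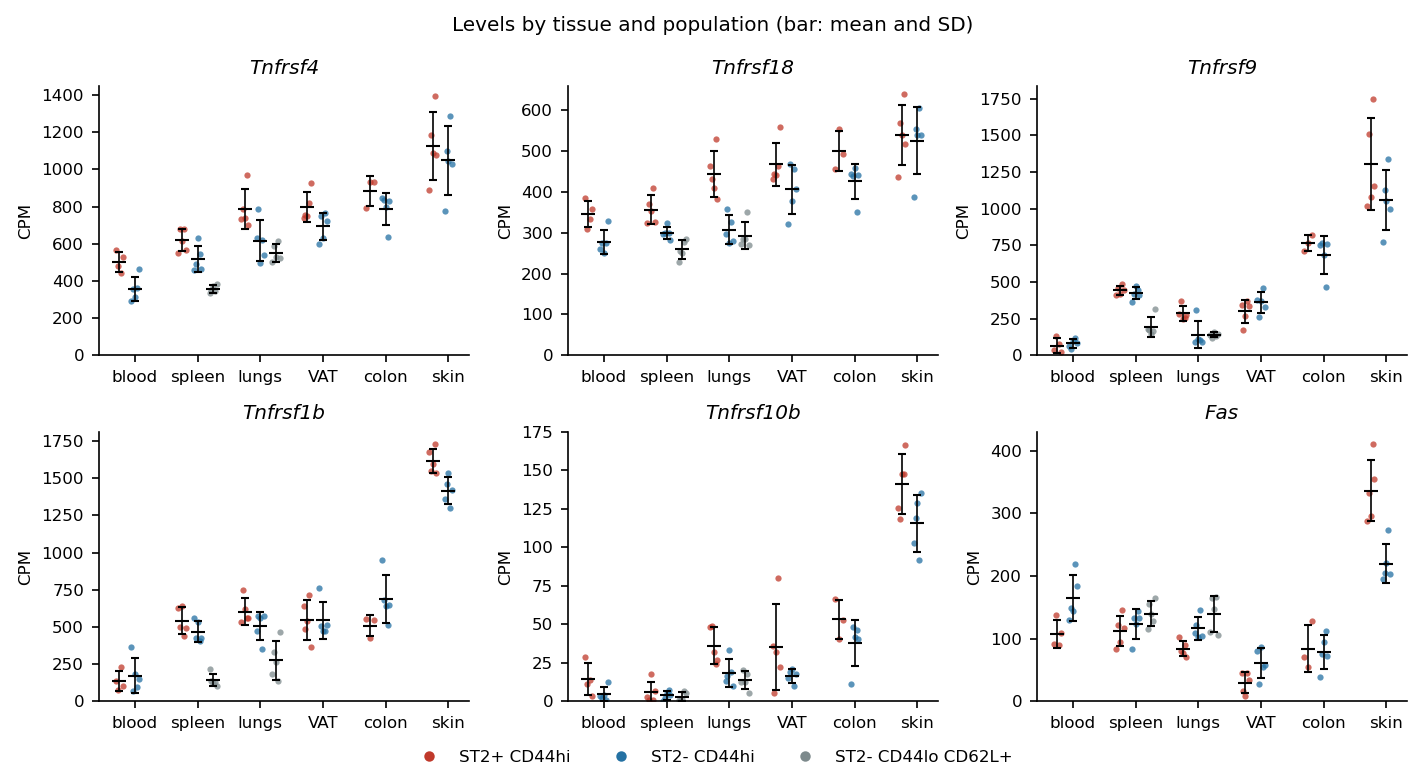
CPM of 6 receptors by tissue (a linear axis from 0), each point a library, coloured by population, with bars for the mean and SD. Skin holds the highest libraries of Tnfrsf1b, Tnfrsf10b and Fas, and the mean of Fas is lowest in ST2+ Tregs of VAT.

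Whether ST2+ Tregs differ from ST2- Tregs of the same tissue was asked in each of the 6 tissues, and Tnfrsf25 was the receptor with the clearest difference. It was higher in ST2+ Tregs of VAT and skin, Fas was lower in ST2+ Tregs of VAT, and Tnfrsf9 was higher in ST2+ Tregs of lungs. In VAT, 1 of 10 members was called higher (1.27% of tested genes) and 1 lower (1.85%). In skin, 1 of 10 was called higher (0.0835% of tested genes) and none lower (0.129%), and in lungs 1 of 10 was called higher (0.501%) and none lower (0.281%). DESeq2 and voom also called 0 members lower in lungs and skin, where edgeR gave an unadjusted p under 0.05 to 1 lower member in lungs (Cd27) and 0 in skin. The median log2 fold change of the 10 members was -0.13 in VAT, 0.24 in skin and 0.38 in lungs, beside -0.0063, -0.0074 and 0.0 for all tested genes.

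In VAT, Tnfrsf25 was at 251, 207, 290, 234 and 203 CPM in the ST2+ libraries of mice 1 to 5 and at 111, 103, 126, 78.4 and 126 CPM in the ST2- libraries. All ST2+ libraries lay above all ST2- libraries, and the difference was 2.17-fold (log2 1.12 ± 0.15, edgeR adjusted p = 2.42e-07). In skin it was at 227, 261, 229, 256 and 255 CPM in ST2+ and at 107, 136, 154, 154 and 134 CPM in ST2- libraries, again with no overlap and higher in 5 of 5 mice, 1.80-fold (log2 0.84 ± 0.15, edgeR adjusted p = 0.000896). Both calls were made under all 17 alternatives that were run. In blood the fold change of 1.46 was under 1.5 (log2 0.55, edgeR adjusted p = 0.0222), and in spleen, lungs and colon the adjusted p missed 0.05. Some alternatives did call Tnfrsf25 higher in blood. These were voom (log2 fold change 0.70), all 70 libraries (0.67), the covariate for sorted cells (0.61) and the fit without mouse 1 (0.66). The fit without the colon libraries (0.59) and the ceiling correction by transcript length (0.61) called it too.

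The ST2 effect on Tnfrsf25 differed among the tissues by an F test of the interaction of tissue and ST2 (edgeR adjusted p = 0.0283), and Tnfrsf25 was the only 1 of 10 members to pass, against 1.43% of tested genes. With mouse as a replicate block 2 members passed, Tnfrsf25 (adjusted p = 0.0215) and Fas (adjusted p = 0.0253, against 0.053 without the block). Without the colon libraries Fas passed (edgeR adjusted p = 0.0328) and Tnfrsf25 did not (adjusted p = 0.0655), and without any 1 of the 5 mice neither passed (for Tnfrsf25, adjusted p = 0.0877 without mouse 1, 0.124 without mouse 2, 0.223 without mouse 3, 0.143 without mouse 4 and 0.119 without mouse 5).

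Fas was at 45.4, 16.6, 8.27, 45.0 and 33.9 CPM in ST2+ and at 80.0, 27.4, 86.2, 53.8 and 58.5 CPM in ST2- libraries of VAT, mice 1 to 5. It was lower in the ST2+ library of each of the 5 mice, although the groups overlapped through mouse 2, and the log2 fold change was -1.04 ± 0.27 (edgeR adjusted p = 0.0152). The call was lost without mouse 2 (adjusted p = 0.0566), mouse 3 (log2 fold change -0.64, adjusted p = 0.248) or mouse 5 (adjusted p = 0.0679), with voom (log2 fold change -1.25, adjusted p = 0.146) and with only the groups compared (adjusted p = 0.427). Tnfrsf1a, not called in VAT (log2 fold change -1.20, edgeR adjusted p = 0.287), was called lower in ST2+ Tregs there without mouse 2 (log2 fold change -2.98, adjusted p = 0.00709) and with a covariate for sorted cells (-2.49, adjusted p = 0.0294). In VAT, 4 of 5 ST2- libraries held 93 to 192 cells and all ST2+ libraries 220. In skin the direction was the opposite and the libraries did not overlap (288 to 410 CPM in ST2+ against 196 to 273 CPM in ST2-), but the log2 fold change of 0.61 had an edgeR adjusted p of 0.424. DESeq2 did not call it either (adjusted p = 0.329), while limma-voom with quality weights did (log2 fold change 0.63, adjusted p = 0.0173).

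**Figure D4:**
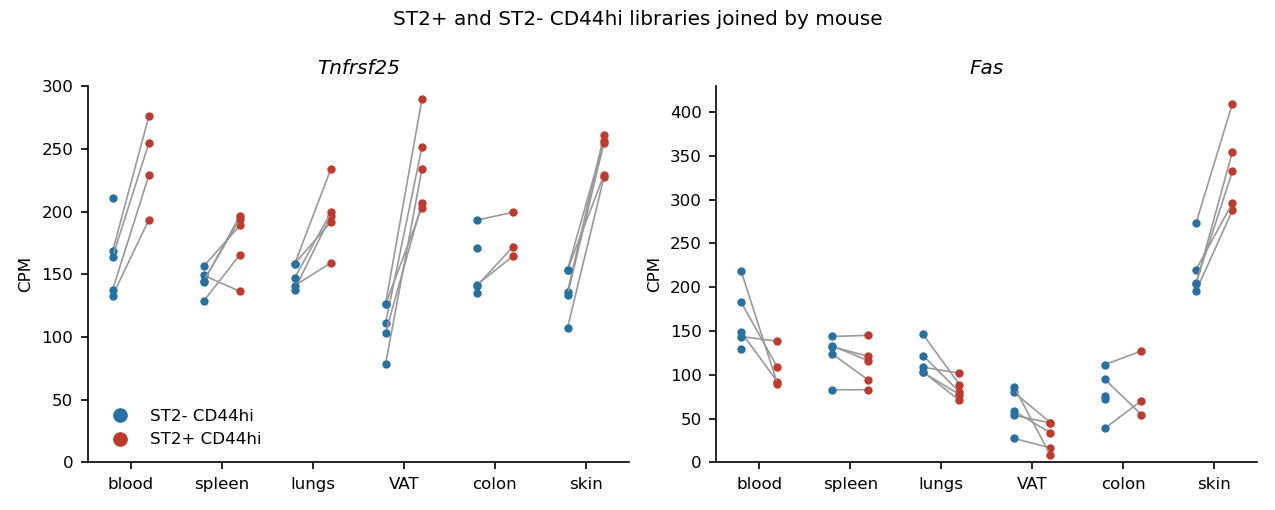
CPM of Tnfrsf25 and Fas in ST2- (left point) and ST2+ (right point) CD44hi libraries of each tissue, with lines joining libraries of the same mouse. Tnfrsf25 rises in 5 of 5 mice in VAT and skin, and the Fas lines slope down in VAT and up in skin.

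Tnfrsf9 in lungs was at 282, 372, 247, 254 and 274 CPM in ST2+ and at 88.6, 308, 112, 106 and 92.0 CPM in ST2- libraries. It was higher in the ST2+ library of 5 of 5 mice, 2.03-fold (log2 1.02 ± 0.27, edgeR adjusted p = 0.0477), with an overlap that came from mouse 2, the highest library of both groups. Without mouse 2 the log2 fold change was 1.40 (adjusted p = 0.00126), and the call was lost without mouse 1 (adjusted p = 0.289), mouse 3 (0.203), mouse 4 (0.273), mouse 5 (0.203) or the colon libraries (0.0623). Tnfrsf18 in lungs was at 463, 432, 410, 530 and 382 CPM in ST2+ and at 298, 359, 274, 325 and 279 CPM in ST2- libraries, without overlap, but its fold change of 1.45 lay under 1.5 (edgeR adjusted p = 0.00322). It was called with the ceiling corrected by exonic length (log2 fold change 0.62, adjusted p = 0.000187) or transcript length (0.67, adjusted p = 6.41e-05) and without mouse 2 (0.60, adjusted p = 0.0152).

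In blood, spleen and colon no member was called by edgeR, against 2.25% of tested genes higher and 1.79% lower in blood, 0.311% and 0.00759% in spleen, and 0.0304% and 0.038% in colon. An unadjusted p under 0.05 was found for 8 members in blood (Tnfrsf1a, Cd27 and Fas lower, and Tnfrsf4, Tnfrsf8, Tnfrsf18, Tnfrsf25 and Tnfrsf10b higher in ST2+), 2 in spleen (Tnfrsf4 and Tnfrsf18) and 0 in colon, beside 18.8%, 5.16% and 5.04% of tested genes. Of these, Tnfrsf8 in blood had 4 counts in mouse 2 and 1 in mouse 5 of ST2+, and 0 in the other blood libraries used. Its edgeR adjusted p was 0.261. DESeq2 called 1 member (Tnfrsf1a, lower) and limma-voom with quality weights 2 (Tnfrsf25, higher, and Fas, lower) in blood, and both called 0 in spleen and colon. Tnfrsf4 in blood was at 564, 478, 444 and 528 CPM in ST2+ and at 290, 357, 316, 364 and 462 CPM in ST2- libraries, 1.41-fold (log2 0.49, edgeR adjusted p = 0.0122). Both ceiling corrections took this gene past 1.5-fold, with a call in blood, and the correction by transcript length also called it in lungs (log2 fold change 0.68, adjusted p = 0.000485, against 0.35 and 0.178 uncorrected). Cd27 was past the p threshold but under 1.5-fold in VAT, like Tnfrsf25 in blood and Tnfrsf18 in lungs above (Cd27 at 325 ± 51.6 CPM in ST2+ against 450 ± 36.3 CPM in ST2-, SD, n = 5 each, edgeR adjusted p = 0.00306).

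**Figure D5:**
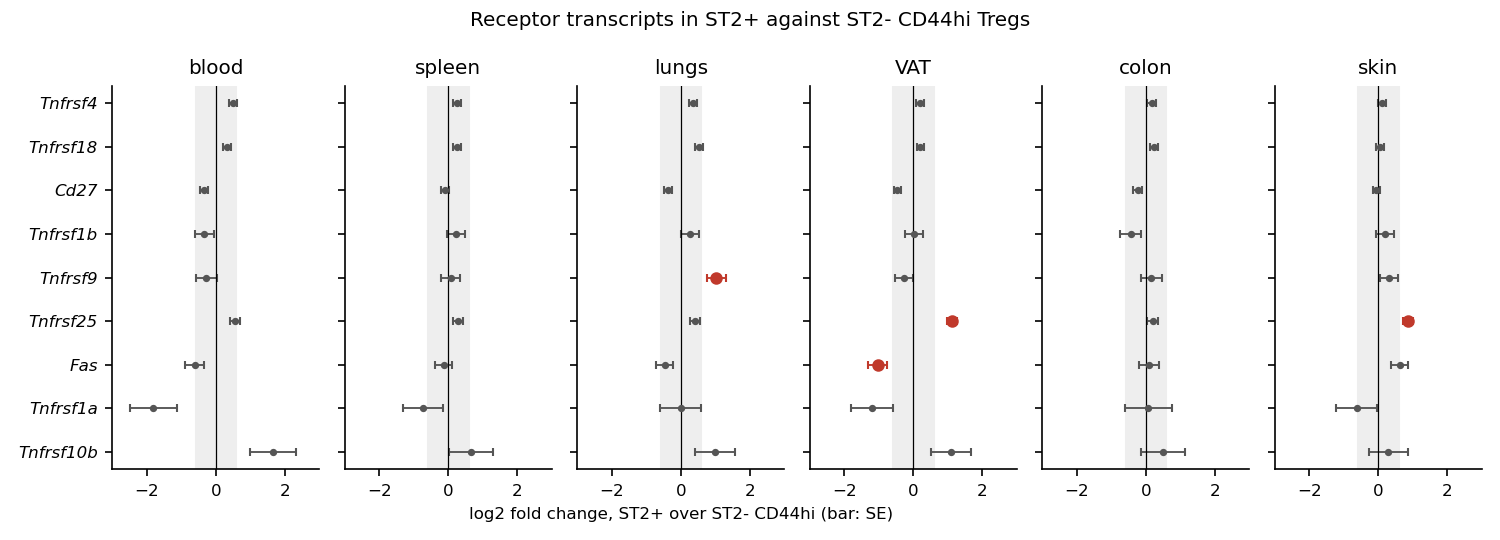
Log2 fold change of ST2+ over ST2- CD44hi Tregs with its SE for 9 receptors in 6 tissues, where the grey band is under 1.5-fold and larger red points are calls. Tnfrsf8, whose values are near 0 in several groups, is left out. The calls are Tnfrsf9 in lungs, Tnfrsf25 and Fas in VAT, and Tnfrsf25 in skin.

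CD44hi Tregs were compared with CD44lo CD62L+ Tregs, both ST2-, to see which receptors accompany the effector state. In spleen, CD44hi Tregs held more Tnfrsf1b, Tnfrsf9 and Tnfrsf8, 3 of 10 members (4.44% of tested genes), and in lungs more Tnfrsf1b, 1 of 10 (4.84%). No member was called lower in either tissue by edgeR, DESeq2 or voom, against 0.592% of tested genes in spleen and 0.691% in lungs by edgeR, and 0 lower members had an unadjusted p under 0.05. Tnfrsf1b in spleen was at 557, 422, 534, 402 and 428 CPM in CD44hi and at 214, 139, 124, 128 and 104 CPM in CD44lo CD62L+ libraries, 3.30-fold without overlap (log2 1.72 ± 0.27, edgeR adjusted p = 2.72e-06). Tnfrsf9 was at 364, 418, 473, 448 and 412 CPM against 178, 175, 145, 165 and 316 CPM, 2.16-fold without overlap (log2 1.11 ± 0.27, edgeR adjusted p = 0.00408, and 0.0537 without mouse 3). Tnfrsf8 was at 14.96, 22.6, 20.0, 23.6 and 15.1 CPM in CD44hi libraries, while 1 of 5 CD44lo CD62L+ libraries had any count. These are 240 against 2 counts, a ratio of 117 with a 95% exact interval of 32.1 to 974.5 that covers counting error only (edgeR adjusted p = 0.00143). Tnfrsf4 was higher without overlap in spleen but under 1.5-fold (1.44-fold, edgeR adjusted p = 0.00178), and passed 1.5-fold with the ceiling correction.

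In lungs Tnfrsf1b was at 472, 573, 558, 353 and 575 CPM in CD44hi and at 182, 332, 265, 133 and 468 CPM in CD44lo CD62L+ libraries. The groups overlapped, but the CD44hi library was higher in each of the 5 mice (1.83-fold, log2 0.87, edgeR adjusted p = 0.0293), a call lost without mouse 1 (adjusted p = 0.0567), mouse 2 (0.0854), mouse 3 (0.156) or mouse 4 (0.081). Tnfrsf9 there was at 141 ± 93.6 CPM in CD44hi and 139 ± 16.8 CPM in CD44lo CD62L+ libraries (SD, n = 5 each). The spleen and lung results were not tested against each other.

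CD44lo CD62L+ Tregs of lungs and spleen, compared with each other, differed in 3 of 10 members, all higher in lungs (2.12% of tested genes higher and 1.04% lower). Tnfrsf4 was at 502, 588, 527, 615 and 524 CPM in lungs and at 333, 350, 374, 349 and 386 CPM in spleen, without overlap (1.54-fold, log2 0.62 ± 0.12, edgeR adjusted p = 0.000276). Tnfrsf1b was at 182, 332, 265, 133 and 468 CPM in lungs and at 214, 139, 124, 128 and 104 CPM in spleen, overlapping and higher in lungs in 4 of 5 mice (log2 0.96 ± 0.26, edgeR adjusted p = 0.0228). Tnfrsf10b was at 12.5, 20.6, 12.7, 17.9 and 5.58 CPM in lungs and at 0.733, 0.397, 1.55, 6.71 and 5.05 CPM in spleen, overlapping and higher in lungs in 5 of 5 mice (log2 2.27 ± 0.65, edgeR adjusted p = 0.0299). The Tnfrsf4 call was lost without mouse 4, where its log2 fold change of 0.57 lay under 1.5-fold (adjusted p = 0.00483). The Tnfrsf1b call was lost without mouse 2 (adjusted p = 0.132), mouse 3 (0.141) or mouse 5 (0.458) and the Tnfrsf10b call without mouse 1 (0.101), mouse 2 (0.191) or mouse 3 (0.154), so no fit without a mouse held all 3 calls. With all 70 libraries none of the 3 was called (for Tnfrsf4, adjusted p = 0.0586). These libraries are also the comparison groups of the CD44hi contrasts above, so the contrasts share them.

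The other genes of the pathway were 18 further receptors (14 tested), 17 ligands (15 tested) and 20 adaptors and regulators (20 tested). Of the other receptors 1 was called in the 9 comparisons of groups, RANK (Tnfrsf11a). It was higher in ST2+ Tregs of VAT, as 1 of 14 tested, beside 1.27% of tested genes. RANK had 177 counts in 4 of 5 ST2+ libraries of VAT and none in the 5 ST2- libraries. Against 3 counts over the ST2- group, this is at least 60.55-fold higher over the group. The bound covers counting error only and not the spread between mice. Most ST2- libraries of VAT held fewer sorted cells than the ST2+ libraries, as given above, and the part of this was not tested. Of the ligands, Fasl, the ligand of Fas, was lower in ST2+ Tregs of VAT (34.4 ± 14.3 against 142 ± 59.1 CPM, SD, n = 5 each, log2 fold change -2.05, edgeR adjusted p = 0.0195) and blood (8.19 ± 2.23 CPM, n = 4, against 41.4 ± 26.1 CPM, n = 5, log2 fold change -2.33, edgeR adjusted p = 0.0204), both without overlap. Lta was also lower in ST2+ Tregs of VAT (log2 fold change -2.35, edgeR adjusted p = 0.00175), and Tnfsf11, which encodes RANKL, and Cd40lg were lower in ST2+ Tregs of skin (log2 fold change -1.99 and -1.32). In CD44hi over CD44lo CD62L+ Tregs, 3 of 15 ligands were higher in spleen (Tnfsf11, Tnfsf13b and Tnfsf14), beside 4.44% of tested genes, and 4 of 15 in lungs (the same 3 and Cd40lg), beside 4.84%. The median log2 fold change of the ligands was 0.88 in spleen and 1.73 in lungs, beside 0.0052 and 0.0061 for all tested genes. Between CD44lo CD62L+ Tregs of lungs and spleen, Tnfsf8 was higher in lungs (log2 fold change 1.17, edgeR adjusted p = 0.0366) and Tnfsf11 lower (-2.22, edgeR adjusted p = 0.00112).

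Of the adaptors and regulators, 4 of 20 were higher in lungs than in spleen among CD44lo CD62L+ Tregs, beside 2.12% of tested genes, which were Tnfaip3, Traf1, Birc3 and Map3k14. Tnfaip3, which encodes the NF-kB inhibitor A20, was at 2017 ± 309 CPM in lungs and 220 ± 83.8 CPM in spleen (SD, n = 5 each, log2 fold change 3.20, edgeR adjusted p = 2.61e-22). Traf1, an adaptor that binds several of the co-stimulatory members, was at 843 ± 170 CPM against 491 ± 45.6 CPM (edgeR adjusted p = 2.58e-06), and Birc3, a ubiquitin ligase held by TRAF adaptors, at 477 ± 66.0 CPM against 252 ± 19.2 CPM (edgeR adjusted p = 1.65e-06). In VAT, Birc3 was higher and Traf5 lower in ST2+ than in ST2- Tregs (log2 fold change 0.70 and -1.42), and in lungs Map3k14 was lower in CD44hi than in CD44lo CD62L+ Tregs (log2 fold change -1.04, edgeR adjusted p = 0.0432). Among tissues, 17 of 20 adaptors passed the F test in ST2+ and 16 of 20 in ST2- Tregs, beside 11 and 9 of 15 ligands and 8 and 10 of 14 other receptors, where 47.6% and 43.5% of tested genes passed.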

How the data were processed

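Tregs were sorted into lysis buffer and made into libraries with SMART-Seq v4 and NexteraXT. The authors mapped the single reads to GRCm38 (STAR, Ensembl annotation), HTSeq assigned them to genes, and the table they deposited holds the raw counts. Their processing notes name HTSeq 0.4.1 and CASAVA 1.8.2. For the strand setting and duplicate reads, the sources used here give nothing. Of the 53465 gene IDs, 53274 were found in GENCODE M21 (Ensembl 96, GRCm38), 21865 of them protein-coding. The table held 0 columns of values that were left unused.

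Libraries under 1000000 counts were left out, namely a blood ST2+ library with 488666 counts (mouse 1) and colon ST2+ libraries with 3582 (mouse 2) and 62333 counts (mouse 5). Depth in the other 67 ran from 1304560 to 2759926 counts (median 2039002), and no 2 libraries of a group (129 pairs) held the same counts. TMM factors were computed over all genes, and 13173 protein-coding genes reaching 1 CPM in 10% of libraries or more were tested by the quasi-likelihood method of edgeR 4.0.16 (R 4.3.3), with 1 term per group and no term for mouse. Calls were made at 1.5-fold or more with an adjusted p (Benjamini-Hochberg, over all tested genes) up to 0.05, and the SE of a log2 fold change is its size divided by the square root of F. CPM use TMM-scaled library sizes. Groups hold 3 to 5 mice, and all groups share 1 estimate of the spread between the libraries of a group. The p-values rest on this pooled spread and take the libraries of a mouse as independent.

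The number of a library names its mouse, so equal numbers mean the same animal. In 27 same-mouse pairs of ST2+ and ST2- libraries of a tissue, the mean correlation of deviations from group means was 0.137 over 5393 genes, above 0.1 in 18 pairs. In 108 pairs of different mice it was -0.0331.

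The members and the gene lists were chosen with earlier results of these data known, so no list is independent evidence. Genes named are the members, genes of the pathway lists called in a comparison of groups, sort genes, cell type markers, and the 3 tested genes most like each member over group means, while Tnfsf4 and Tnfsf18 were chosen after their values were seen. The methods were tested on simulated counts. Alternatives were DESeq2 1.42.0, voom with quality weights (limma 3.58.1), mouse as a replicate block, median-of-ratios factors, no CPM filter, 1 CPM in 50% of libraries, all 70 libraries, only the groups compared, a covariate for sorted cells, and each mouse left out in turn. After the values were seen, refits without the colon libraries and with counts corrected for the ceiling by exonic or longest transcript length were added. Tables were made in Python 3.11.15 with pandas 2.3.3, numpy 2.4.6 and scipy 1.17.1.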

Additional observations from a re-analysis of the deposited data

Results flagged for a closer look

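In groups of 4 or 5 libraries, a library was flagged when its gap to the nearest other library took up most of the range of its group, a rule that chance meets in about 1 in 20 groups. It flagged 19 of 130 groups of a member. Mouse 2 stood high for Tnfrsf9 in lungs, at 372 CPM in ST2+ (the others at 247 to 282) and at 308 CPM in ST2- CD44hi Tregs (88.6 to 112). The same mouse stood high for Tnfrsf8 in both of these groups, at 21.8 CPM in ST2+ (0 to 5.83) and 16.3 CPM in ST2- (0 to 2.89), and for this gene at 0.794 CPM in spleen CD44lo CD62L+ Tregs, where the others were at 0. In colon ST2-, mouse 4 was low for Tnfrsf4 at 637 CPM (797 to 845), Tnfrsf9 at 464 CPM (684 to 762) and Tnfrsf18 at 351 CPM (438 to 457), and mouse 1 was low for Tnfrsf10b at 11.4 CPM (40.5 to 48.5).

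Mouse 4 was high in lung CD44lo CD62L+ Tregs for Tnfrsf18 at 351 CPM (270 to 285) and Cd27 at 666 CPM (456 to 507). Mouse 5 was high for Tnfrsf9 in spleen CD44lo CD62L+ Tregs at 316 CPM (145 to 178), for Tnfrsf18 in VAT ST2+ at 559 CPM (430 to 463), for Tnfrsf8 in VAT ST2+ at 31.3 CPM (0 to 7.35) and for Tnfrsf10b in blood ST2- at 12.3 CPM (1.02 to 3.90). Tnfrsf1a was high in mouse 2 of VAT ST2+ at 80.2 CPM (0 to 13.0), mouse 1 of spleen ST2- at 84.1 CPM (56.1 to 60.7) and mouse 3 of VAT ST2- at 98.8 CPM (28.6 to 42.3). Tnfrsf1b was high in mouse 1 of VAT ST2- at 763 CPM (469 to 512).

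The ST2 effect on Tnfrsf25 differed among tissues by the interaction test of edgeR (adjusted p = 0.0283). As given above, this was lost when any single mouse or the colon libraries were left out.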

How the results depend on the processing

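Over the alternatives, 186 counts of called members stayed within 1.5 times the main count, 19 were higher and 29 lower, and no member that was called changed direction. Tnfrsf25 in VAT and skin, and Tnfrsf1b and Tnfrsf8 in CD44hi over CD44lo CD62L+ Tregs of spleen, were called in all 17 alternatives, Fas in VAT in 12 of 17 and Tnfrsf9 in lungs in 9 of 17. The counts below are of the 10 members. For ST2 in blood (0 members), DESeq2 gave 1, voom 2, all 70 libraries 2, the covariate for sorted cells 1, no colon libraries 1, the exon ceiling correction 1 and the transcript correction 2, and leaving out a mouse gave 0 to 2. For ST2 in lungs (1), no CPM filter, all 70 libraries, only the groups compared and no colon libraries gave 0, the ceiling corrections 2 and 3, and leaving out a mouse 0 to 2. For ST2 in VAT (2), voom and only the groups compared gave 1, the covariate for sorted cells 3, and leaving out a mouse 1 to 2. For ST2 in skin (1), voom gave 2, adding Fas. For CD44hi in lungs (1), all 70 libraries and only the groups compared gave 0, and leaving out a mouse 0 to 1. For lungs over spleen in CD44lo CD62L+ Tregs (3), all 70 libraries gave 0, only the groups compared 1, and leaving out a mouse 1 to 2. For the interaction (1), DESeq2 gave 2, voom 3, mouse as replicate block 2, 1 CPM in 50% of libraries 2, each ceiling correction 2, and all 70 libraries, the covariate for sorted cells and leaving out a mouse 0. The block changed no other count by over 1.5 times. The cause of these changes was not tested. At the median of 2039002 counts per library, 1 CPM is about 2 counts, which limits Tnfrsf8 (median 5.50 CPM) and Tnfrsf10b (17.7 CPM). For Tnfrsf1a (median 48.0 CPM) this concerns its libraries near 0.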

Other observations

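Among the pathway genes, Tnfaip3 was lower in spleen than in the other 5 tissues. In ST2- CD44hi Tregs its mean was 235 CPM in spleen, 796 in blood, 1782 in VAT, 2057 in lungs, 2146 in skin and 2309 in colon, and every tissue over spleen was called in edgeR's fit, with blood over spleen the smallest step (log2 difference of spleen over blood -1.76, adjusted p = 1.91e-11). Tnfsf8, the ligand of CD30, was the most abundant ligand in ST2- Tregs of lungs and colon, at 413 and 599 CPM. Tnfsf4, the ligand of OX40, and Tnfsf18, the ligand of GITR, had group means of at most 2.33 CPM. Of 15 tested ligands, 1 passed the F test of the interaction of tissue and ST2, beside 1.43% of tested genes. This was Cd40lg (edgeR adjusted p = 0.015), while Tnfsf11 (0.0728) and Fasl (0.0777) missed the threshold.

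By the Pearson correlation of log2 CPM over the 14 group means, which share mice and libraries, the genes most like Tnfrsf4 were Ninj1 (r = 0.973), Samsn1 (0.971) and Itgav (0.968), and those most like Tnfrsf18 were Xcr1 (0.977), Samsn1 (0.968) and Hspa2 (0.967). Orai1 (0.953), Ccr8 (0.948) and Map9 (0.933) were most like Tnfrsf1b, and Slc26a2 (0.955), C1qtnf12 (0.940) and Pmepa1 (0.934) most like Tnfrsf9. The genes most like Fas were Topors (0.940), Zhx2 (0.922) and Camsap2 (0.912), and the most like Tnfrsf10b was Tppp (0.987), like Cd27 Rbm5 (0.945), like Tnfrsf8 Penk (0.948), like Tnfrsf1a Insl6 (0.940) and like Tnfrsf25 Tex264 (0.840). By Spearman's rho the first gene was the same for Tnfrsf4 (0.991) and Tnfrsf8 (0.943), and another for Tnfrsf1b, Tnfrsf9, Tnfrsf18, Tnfrsf1a, Tnfrsf10b, Tnfrsf25, Cd27 and Fas.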
